A study of Homo sapiens with 11 samples.

Results

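The genes of the core and linker histones, the proteins that package DNA into chromatin, were described in the human T cell leukaemia line Jurkat (clone E6-1). Members were taken from the authors' 2 comparison tables by name (symbols that begin with HIST1H, HIST2H, HIST3H or HIST4H, or that hold H1F, H2AF or H3F), with a mean normalised count of at least 5. This gave 63 members among 102 rows with such names and 44416 genes in all. The members comprised 44 replication-dependent cluster genes, 10 replacement variants, 4 pseudogenes in the clusters, 4 pseudogenes of replacement variants and 1 antisense RNA. Nearest to the limit on the inside were HIST1H4J with a mean of 5.62 and HIST2H2AA3 with 6.57, and on the outside HIST1H2AM with 4.66 and HIST1H2BE with 4.48. The 39 rows under the limit were 22 replication-dependent genes, 4 replacement variants and 13 pseudogenes.

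Cells had been treated for 30 min with 100 µM dieldrin, an organochlorine insecticide, with PMA (phorbol myristate acetate, a phorbol ester that activates protein kinase C), labelled with the same dose, or with DMSO, the solvent that all groups received. Each of these 3 treatments had 3 libraries of poly(A)-enriched RNA. A further library depleted of ribosomal RNA was made from dieldrin cells and another from DMSO cells, and each has a deposited list of the sites where RNA was made in both directions (divergent transcription), placed on hg19. The poly(A) values are the comparisons of each treatment with DMSO that the authors computed. The cells are 1 clone, and no label tells whether a group's libraries are separate cultures; the p-values therefore reflect library-to-library spread, which may be technical.

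Replication-dependent histone genes supply the histones for newly copied DNA. They lie in clusters, have no introns, are transcribed mainly in S phase, and most of their mRNA ends in a stem-loop bound by SLBP instead of a poly(A) tail, although some of them also make polyadenylated forms. Replacement variants are made throughout the cell cycle from single genes outside the clusters, are polyadenylated, and usually have introns. Many H2A and H2B cluster genes stand head to head and share the DNA between their starts as a promoter.

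The 250 bases before the start of 5 genes called higher with dieldrin are printed, from RefSeq on GRCh38.p14, in the direction of transcription. H3F3B among them is a replacement variant outside the clusters, and the others are cluster genes. They come from chr1:228457874-228458123 on the minus strand for HIST3H2A, chr1:149886683-149886932 on the minus strand for HIST2H2BE, chr6:26123922-26124171 on the plus strand for HIST1H2AC, chr6:27838319-27838568 on the plus strand for HIST1H2BN and chr17:75779780-75780029 on the minus strand for H3F3B. Capitals mark each match, on either strand, of 5 motifs: TATAAA (the TATA box), CCAAT (the box bound by NF-Y), ATTTGCAT (the octamer bound by POU factors), TGACGT (the core of sites for CREB and ATF factors) and the CArG box, the element bound by SRF.
HIST3H2A: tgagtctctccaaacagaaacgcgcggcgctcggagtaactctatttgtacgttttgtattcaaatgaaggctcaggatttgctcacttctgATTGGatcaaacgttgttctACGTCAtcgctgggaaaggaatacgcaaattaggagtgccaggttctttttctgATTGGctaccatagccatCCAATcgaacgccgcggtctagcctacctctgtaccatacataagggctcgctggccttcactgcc
HIST2H2BE: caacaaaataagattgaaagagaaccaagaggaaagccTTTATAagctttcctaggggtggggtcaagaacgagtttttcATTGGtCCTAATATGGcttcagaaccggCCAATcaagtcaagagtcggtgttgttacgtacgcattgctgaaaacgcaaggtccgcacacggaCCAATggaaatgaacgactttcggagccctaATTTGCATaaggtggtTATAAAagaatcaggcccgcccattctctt
HIST1H2AC: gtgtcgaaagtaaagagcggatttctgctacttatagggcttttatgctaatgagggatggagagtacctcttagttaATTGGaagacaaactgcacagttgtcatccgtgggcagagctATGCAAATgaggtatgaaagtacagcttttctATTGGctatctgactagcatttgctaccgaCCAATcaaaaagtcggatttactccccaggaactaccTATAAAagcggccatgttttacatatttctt
HIST1H2BN: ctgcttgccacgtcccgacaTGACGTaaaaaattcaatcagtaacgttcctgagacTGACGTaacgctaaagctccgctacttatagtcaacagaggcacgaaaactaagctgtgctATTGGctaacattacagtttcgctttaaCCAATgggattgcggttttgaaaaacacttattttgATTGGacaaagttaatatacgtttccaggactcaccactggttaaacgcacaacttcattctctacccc
H3F3B: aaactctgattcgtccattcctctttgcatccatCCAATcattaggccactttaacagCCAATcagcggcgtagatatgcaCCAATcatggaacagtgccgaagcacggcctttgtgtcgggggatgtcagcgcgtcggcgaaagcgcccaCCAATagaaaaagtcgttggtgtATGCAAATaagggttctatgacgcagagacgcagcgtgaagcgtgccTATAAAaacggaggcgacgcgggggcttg

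No overlaps between motifs occurred in these 5 windows. The motifs were chosen with the sequences in view, and a match is a description of the letters only. The HIST3H2A window shared 229 bases with that of its head-to-head partner HIST3H2BB, the HIST2H2BE window shared 235 with that of HIST2H2AC, and the HIST1H2AC window shared 245 with that of HIST1H2BC. RefSeq promoters were matched for 43 of the 63 members, and H1F0 and HIST2H2BC were among the 20 without an entry.

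Levels are given as mean normalised counts of a group, worked out from the overall mean and both unshrunken changes. They are not corrected for gene length, so they are compared between groups and not between genes. Because the RNA was poly(A)-enriched, levels of replication-dependent genes need not reflect their mRNA that ends in the stem-loop. The classes are therefore not covered alike. No values per library were used, so depth is unknown and it cannot be said whether single libraries of the groups overlap. Shares of the summed means are given as CPM, where 1 CPM is a mean of 83.7, which 13 of the 44 replication-dependent genes and 9 of the 10 replacement variants reached. All 12 T cell and Jurkat markers found in the tables reached 1 CPM, with a median of 354 CPM. Of 5 genes in each other list, 1 B cell marker reached it (CD79A, 34.6 CPM), as did 1 fibroblast or epithelial marker (COL1A1, 2.0 CPM), and 0 myeloid and 0 erythroid or platelet markers did. In bulk RNA, fewer cells of a kind, such as cells in S phase, and less RNA per cell cannot be told apart.

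Dieldrin raised 8 histone genes and lowered none past the threshold within 30 min. The 8 were the H2A genes HIST3H2A and HIST1H2AC, the H2B genes HIST3H2BB, HIST2H2BE and HIST1H2BN, the H2B pseudogene HIST2H2BC, the linker histone gene H1F0 and the H3 variant gene H3F3B. In the authors' deposited table, an adjusted p under 0.05 was reached by 2.3% of all genes tested (1.28% higher and 1.02% lower), and among the 63 histone genes by 12.7%, all of them higher. At an unadjusted p under 0.05 the authors' deposited table held 15 higher and 3 lower histone genes. Over all genes tested, 4.54% were higher and 736 of 19280 were lower at that level. The 3 lower genes were H3F3A, HIST1H2BC and the H3 gene HIST1H3I, which had 34.3 counts with dieldrin, 58.7 with PMA and 59.9 with DMSO.

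The calls were spread over both classes. Among replication-dependent genes 5 of 44 were higher, and among replacement variants 2 of 10 were, where 1.28% of all genes tested were higher. The median unshrunken log2 change in the authors' deposited table was 0.06 for the replication-dependent genes, with a range of -1.03 to 1.87, and 0.06 for the replacement variants, with a range of -0.25 to 0.68. Over all 19531 genes with a mean of at least 5 it was 0.0025. The 39 replication-dependent genes that were not called had a median log2 change of 0.0075, with 21 above 0. The difference in calls between the classes was not tested.

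By histone type, the calls among replication-dependent genes lay in H2A, with 2 of 10, and H2B, with 3 of 12. Of 4 H1, 8 H3 and 10 H4 genes, 0 were called. Over all genes tested 1.28% were higher, so 0 calls among so few genes does not set these types apart from other genes. The median log2 changes in the authors' deposited table were 0.61 for H2A, 0.06 for H2B, -0.41 for H1, 0.18 for H3 and 0.04 for H4. The difference between the types was not tested, and the median member of a type had a mean of 35.3 (H2A) to 94.9 (H2B) counts.

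**Figure D1:**
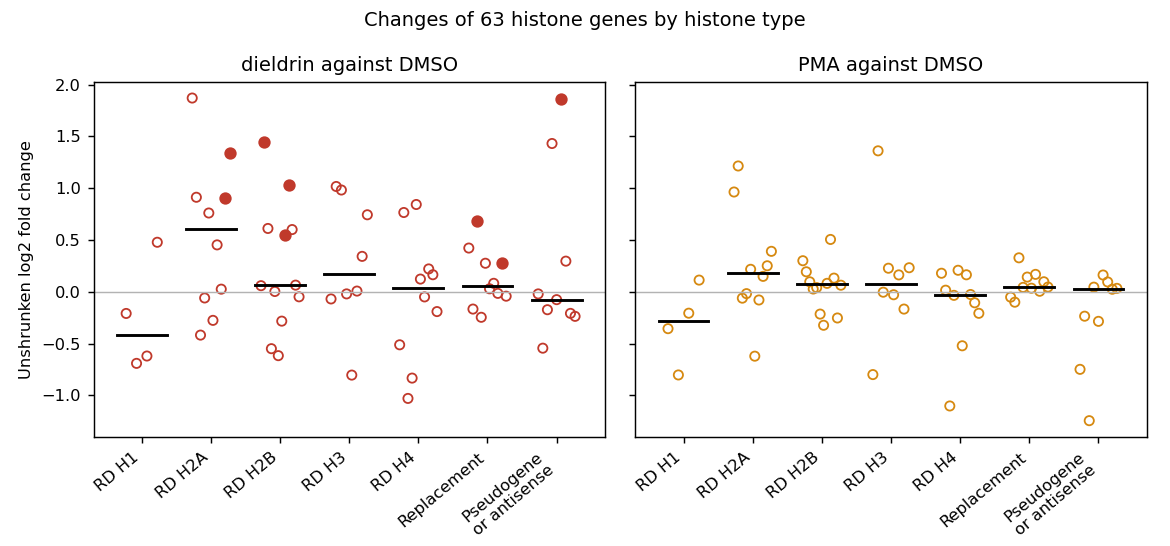
Unshrunken log2 fold changes of the 63 histone genes with dieldrin (left) and PMA (right) against DMSO, grouped by histone type (RD, replication-dependent). Each circle is a gene, filled where the adjusted p is under 0.05, and black lines are medians; the 8 filled genes are all in the dieldrin panel and all above 0, while the medians of most types lie near 0.

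HIST3H2A (ENSG00000181218, hg19 chromosome 1, 228645065 to 228645560), an H2A gene of the small HIST3 cluster, had the smallest p of the 63. Its mean normalised count was 849 with dieldrin, 440 with PMA and 336 with DMSO. The authors' deposited table gives a 2.53-fold unshrunken increase with dieldrin, a shrunken log2 change of 0.94 ± 0.11 (SE) and an adjusted p of 1.24e-15. Its head-to-head partner HIST3H2BB (ENSG00000196890, chromosome 1, 228645808 to 228646259), an H2B gene, stood at 59.8 with dieldrin, 25.0 with PMA and 21.9 with DMSO. For HIST3H2BB the authors' deposited table has 2.73-fold and an adjusted p of 0.00607. Both genes of this promoter thus rose with dieldrin by similar unshrunken amounts, while their PMA levels lay close to those of DMSO for HIST3H2BB and between the other groups for HIST3H2A.

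HIST1H2AC (ENSG00000180573, chromosome 6, 26124373 to 26139344), an H2A gene of the large first cluster, had 311 counts with dieldrin, 198 with PMA and 166 with DMSO. The authors' deposited table gives it 1.87-fold with dieldrin, a shrunken log2 change of 0.64 ± 0.11 (SE) and an adjusted p of 5.42e-07. HIST2H2BE (ENSG00000184678, chromosome 1, 149856010 to 149858232), an H2B gene of the second cluster whose window above holds the CArG box, had 274 counts with dieldrin, 190 with PMA and 134 with DMSO. Its dieldrin change in the authors' deposited table was 2.05-fold, with an adjusted p of 0.00026. HIST1H2BN (ENSG00000233822, chromosome 6, 27806323 to 27823487), an H2B gene of the first cluster, had 197 counts with dieldrin, 142 with PMA and 135 with DMSO, and the authors' deposited table gives 1.47-fold with an adjusted p of 0.0143. In all of these the dieldrin group was highest and the DMSO group lowest. Annotated spans of HIST1H2AC, HIST2H2BE and HIST1H2BN exceed 1 kb. Of the 16 replication-dependent genes with such spans 3 were called, against 2 of the 28 with shorter ones and 1.28% of all genes higher. The longer genes had a median mean of 168 counts and the shorter ones 32.5, and the difference in calls was not tested.

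**Figure D2:**
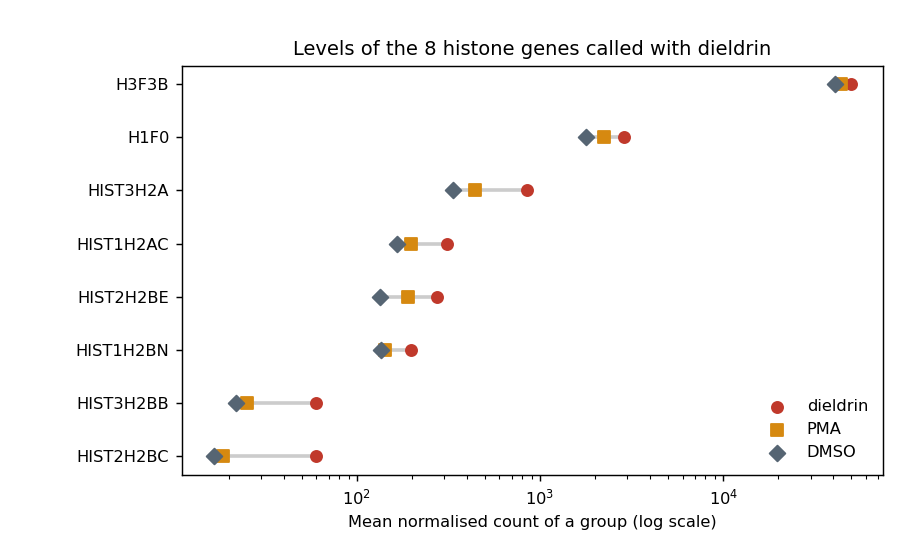
Mean normalised count (log scale) of the 8 histone genes called with dieldrin, in the dieldrin group (circles), the PMA group (squares) and the DMSO group (diamonds). In all 8 the dieldrin group is highest, and the PMA group lies between it and the DMSO group.

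The summed count of the 44 replication-dependent genes was 5965 with dieldrin, 5008 with PMA and 4847 with DMSO, which is 1.23 times the DMSO sum with dieldrin and 1.03 times with PMA. This sum is of poly(A)-enriched RNA and does not measure the total mRNA of these genes, most of which has no poly(A) tail. HIST1H2BK, an H2B gene that holds 23.7% of the counts of this class, had 1203 with dieldrin, 1300 with PMA and 1244 with DMSO. The authors' deposited table puts its log2 change at -0.05 with dieldrin and 0.06 with PMA. The 5 replication-dependent genes called higher held 899 of the 1119 counts (80.4%) by which the dieldrin sum exceeded the DMSO sum. These 5 were picked by their rise in the same data, so a large share follows in part from that choice. Uncalled members stood on both sides of their DMSO level, so the sum nets differences of both signs.

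The other members with most counts of their type did not pass the test with dieldrin. HIST1H1C, an H1 gene, had 631 counts with dieldrin, 490 with PMA and 453 with DMSO (log2 change 0.48, adjusted p = 0.223 in the authors' deposited table). HIST1H1B, an S phase H1 gene, had 46.7 with dieldrin, 62.1 with PMA and 71.7 with DMSO (log2 -0.62, adjusted p = 1.00 in the authors' deposited table). The H2B gene HIST1H2BD had 244 with dieldrin, 196 with PMA and 233 with DMSO. Among H3 genes, HIST1H3D had 109 with dieldrin, 76.3 with PMA and 64.9 with DMSO, and HIST1H3H had 70.4 with dieldrin, 49.5 with PMA and 55.5 with DMSO. Among H4 genes, HIST1H4H had 212 with dieldrin, 210 with PMA and 242 with DMSO, and HIST1H4E had 197 with dieldrin, 163 with PMA and 176 with DMSO. Their estimates lay on both sides of 0. Wide unshrunken changes also stood at genes of few counts: the H2A gene HIST2H2AA3 had 10.9 counts with dieldrin, 5.82 with PMA and 2.98 with DMSO, and its dieldrin log2 change in the authors' deposited table is 1.87 unshrunken and 0.18 shrunken, with an adjusted p of 0.252. HIST1H4J, the member of lowest mean, had 4.17 counts with dieldrin, 6.74 with PMA and 5.95 with DMSO.

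Among replacement variants, H1F0 and H3F3B rose with dieldrin. H1F0 (ENSG00000189060, chromosome 22, 38201114 to 38203442) encodes the linker histone H1.0, which accumulates in differentiated and resting cells. Its count was 2866 with dieldrin, 2243 with PMA and 1786 with DMSO. The authors' deposited table gives H1F0 1.6-fold with dieldrin, a shrunken log2 change of 0.54 ± 0.09 (SE) and an adjusted p of 1.92e-06. H3F3B (ENSG00000132475, chromosome 17, 73772515 to 73781974) is one of the genes of the H3 replacement variant that is deposited in transcribed chromatin. It had 49780 counts with dieldrin, 43900 with PMA and 41035 with DMSO, and the authors' deposited table gives 1.21-fold with dieldrin, a shrunken log2 change of 0.26 ± 0.06 (SE) and an adjusted p of 0.00224.

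H3F3A, the other gene of the same protein, had 17490 counts with dieldrin, 21365 with PMA and 20734 with DMSO. Its dieldrin log2 change in the authors' deposited table was -0.25, with an unadjusted p of 0.0185 and an adjusted p of 0.353, so it did not pass the test, and its estimate lay on the other side of 0 from that of H3F3B. Its processed pseudogenes H3F3AP6 and H3F3AP4 had similar estimates, -0.24 and -0.21 in the authors' deposited table, and reads may be split among such near-identical copies. H3F3C, a further H3 variant gene, had 34 counts with dieldrin, 24.5 with PMA and 25.4 with DMSO.

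None of the H2A variants passed the test. H2AFZ, the gene of H2A.Z, which marks nucleosomes around transcription starts, had 108399 counts with dieldrin, 115233 with PMA and 111586 with DMSO. In the authors' deposited table its dieldrin log2 change was -0.04, and those of H2AFV (the other H2A.Z gene), H2AFX (H2A.X, phosphorylated at DNA breaks; its mRNA has both stem-loop and polyadenylated forms) and H2AFY (macroH2A) were 0.03, 0.08 and -0.01. For H2AFY2, the other macroH2A gene, it was -0.17, at 95.0 counts with dieldrin, 99.5 with PMA and 107 with DMSO. H1FX, a linker variant gene, stood at 22255 with dieldrin, 20289 with PMA and 18379 with DMSO (log2 0.28, adjusted p = 0.111 in the authors' deposited table). Summed over the 10 replacement variants, counts were 282321 with dieldrin, 286547 with PMA and 273758 with DMSO.

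The remaining called member was HIST2H2BC (ENSG00000203819, chromosome 1, 149821760 to 149822339), an H2B pseudogene of the second cluster that RefSeq lists as transcribed. It had 60.0 counts with dieldrin, 18.5 with PMA and 16.5 with DMSO. The authors' deposited table gives 3.63-fold with dieldrin, a shrunken log2 change of 0.57 ± 0.10 (SE) and an adjusted p of 5.56e-06. Its neighbour and close copy HIST2H2BD had 23.4 counts with dieldrin, 8.96 with PMA and 8.68 with DMSO (adjusted p = 0.131 in the authors' deposited table). How reads were split between these copies is not given in the sources used here. Histone coding sequences of 1 type are much alike in general. In addition 17 members overlapped another annotated gene, 14 of them on the opposite strand, among them H3F3B with UNK, H1FX with H1FX-AS1, and HIST1H2BK with HIST1H4I. The sources used here do not say whether counting used strand, and the values of these genes are uncertain.

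PMA changed no histone gene past the threshold. In the authors' deposited table for PMA, 0.619% of all genes tested had an adjusted p under 0.05 (0.528% higher and 0.0908% lower), and 0 of the 60 histone genes with an adjusted p did, in either direction, by the Wald test. At an unadjusted p under 0.05 the authors' deposited table held 3 histone genes, all higher, and 2.25% of all genes were higher at that level. The authors' deposited table puts H1F0 at 1.26-fold (adjusted p = 0.422), HIST3H2A at 1.31-fold (adjusted p = 0.725) and HIST2H2BE at 1.42-fold (adjusted p = 0.989). With the Wald statistic rescaled to its own spread over all genes, a setting chosen after seeing the data, H1F0 and HIST3H2A passed, with adjusted p-values of 0.00483 and 0.0196. The median log2 change with PMA in the authors' deposited table was 0.03 for replication-dependent genes, 0.04 for replacement variants and -0.0045 for all genes with a mean of at least 5.

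For dieldrin against PMA, the shrunken change with PMA was taken from that with dieldrin, so that the shared DMSO libraries cancel out. Over all genes, 0.494% differed at an adjusted p under 0.05 (0.261% higher with dieldrin and 0.233% lower). Of 60 histone genes 2 were higher with dieldrin than with PMA and 0 lower, and at an unadjusted p under 0.05 these were 7 and 0, where 1.32% of all genes were higher. HIST3H2A was 1.93-fold higher, with a difference of shrunken log2 changes of 0.68 ± 0.15 (SE) and an adjusted p of 0.00300 by this normal test with Benjamini-Hochberg adjustment. HIST2H2BC was 3.24-fold higher, with a difference of 0.54 ± 0.15 (SE) and an adjusted p of 0.0465 by the same test, which did not hold with unshrunken changes (adjusted p = 0.407). For the other genes called with dieldrin, the differences were 0.47 ± 0.15 for HIST1H2AC (adjusted p = 0.275), 0.33 ± 0.13 for HIST3H2BB, 0.33 ± 0.15 for HIST1H2BN, 0.29 ± 0.16 for HIST2H2BE, 0.28 ± 0.13 for H1F0 and 0.17 ± 0.09 for H3F3B (SE), all toward dieldrin and short of the threshold. With the covariance of the shared DMSO libraries taken out of the error, HIST1H2AC (adjusted p = 0.00111) and HIST3H2BB (adjusted p = 0.0182) passed too. That these were called against DMSO with dieldrin and not with PMA is, without that step, not shown to be a difference between the treatments.

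The head-to-head pairs allow genes with nearby starts on opposite strands to be compared. Of 16 such pairs by name, 10 had both genes at a mean of at least 5, with starts 130 to 319 bp apart (median 234.5 bp). With dieldrin 1 pair had both genes called, HIST3H2A and HIST3H2BB, 3 had 1 gene called, and 6 had none. The unshrunken changes of the genes of a pair had the same sign in 9 of 10. Some of these lay near 0, as for HIST1H3J (log2 0.0075) and HIST1H2BO (log2 0.0035). Between the starts of these genes lies that of HIST1H2AM (mean 4.66), 240 bp from that of HIST1H2BO. HIST1H2BO is counted with each of them among the 16 pairs, so HIST1H3J and HIST1H2BO need not share a promoter. The share over all head-to-head pairs of genes was not worked out, and agreement within pairs was not tested. In the pair with opposite signs, HIST1H2AC was called higher while HIST1H2BC, whose start lies 219 bp away, had 60.7 counts with dieldrin, 80.2 with PMA and 93.1 with DMSO. The authors' deposited table gives HIST1H2BC a log2 change of -0.62 with an adjusted p of 0.532. Next to HIST2H2BE, the H2A gene HIST2H2AC had 66.3 counts with dieldrin, 45.8 with PMA and 48.4 with DMSO (adjusted p = 0.959 in the authors' deposited table). Next to HIST1H2BN, the H2A gene HIST1H2AK had 23.1 with dieldrin, 15.9 with PMA and 13.6 with DMSO (adjusted p = 0.816 in the authors' deposited table).

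**Figure D3:**
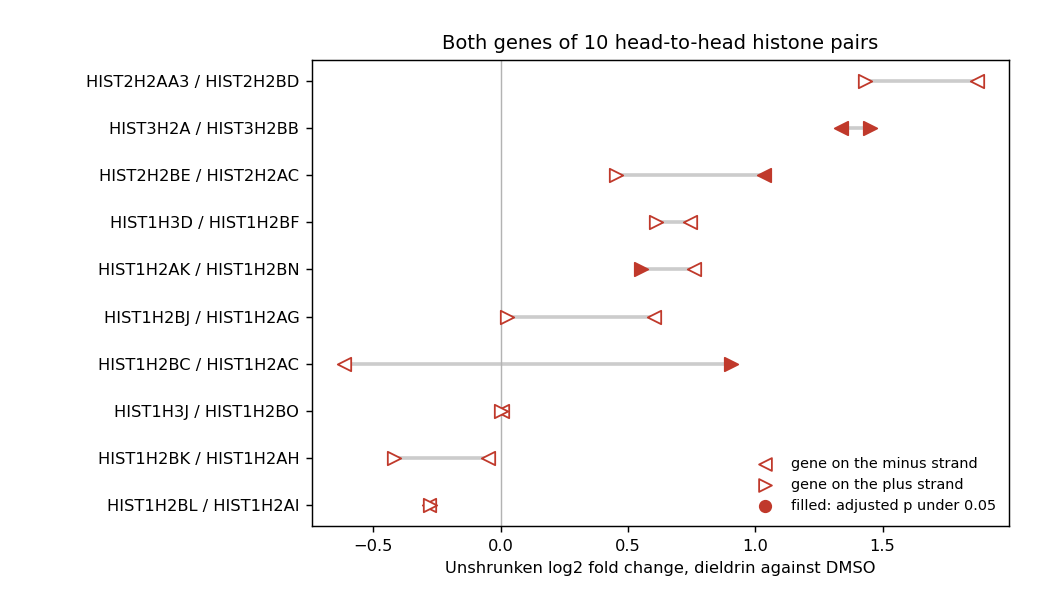
Unshrunken log2 fold change with dieldrin against DMSO of both genes of the 10 head-to-head histone pairs, joined by a line; left-pointing triangles are minus-strand genes, right-pointing ones plus-strand genes, and filled symbols have an adjusted p under 0.05. HIST3H2A and HIST3H2BB move together, and only the HIST1H2BC and HIST1H2AC pair lies on both sides of 0.

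By cluster, dieldrin calls were 2 of 36 members in HIST1 on chromosome 6, 2 of 8 in HIST2 and 2 of 3 in HIST3, both on chromosome 1, and 0 of 1 in HIST4, all higher, where 1.28% of all genes were higher. Genes other than histone genes inside the clusters were also examined. Between the first and the last member of HIST1 (26020718 to 27861669) 19 such genes had a mean of at least 5, of which 2 were higher with dieldrin and 0 lower. Both are clone-named genes: RP1-86C11.7, 2676 bp from HIST1H2BJ, had 87.8 counts with dieldrin, 31.7 with PMA and 22.0 with DMSO (adjusted p = 4.33e-06 in the authors' deposited table), and RP1-34B20.4, 1442 bp from HIST1H2BF, had 25.4 with dieldrin, 7.04 with PMA and 4.70 with DMSO (adjusted p = 0.0051 in the authors' deposited table). Within HIST2 2 of 3 such genes were higher, against the same 1.28% of all genes; differences between clusters were not tested. RP11-196G18.22, 965 bp from HIST2H2BD, had 632 counts with dieldrin, 324 with PMA and 340 with DMSO (adjusted p = 1.81e-05 in the authors' deposited table), and RP11-196G18.24 had 397 with dieldrin, 181 with PMA and 200 with DMSO (adjusted p = 0.000214 in the authors' deposited table). RP11-196G18.22 and RP11-196G18.24 also differed between dieldrin and PMA, with adjusted p-values of 0.0155 and 0.0337 by the normal test. These genes lie beside HIST2H2BC and HIST2H2BD, so the rise there was not limited to the histone genes.

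The site lists show where the authors placed divergent transcription at histone genes. Each comes from 1 library, so counts are given without a test. The dieldrin list holds 118474 sites, with a median length of 255 bp, and the DMSO list 113689, with a median of 254 bp. A site lay within 1 kb of the start of 57 of 63 histone genes in the dieldrin list and 58 in the DMSO list, where all genes with a mean of at least 5 reached 64.4% and 64.7%. For replication-dependent genes this was 42 of 44 in both lists, and for replacement variants 8 of 10 in the dieldrin list and 9 in the DMSO list. Neighbouring genes can count the same site, as HIST1H3D and HIST1H2BF do in both lists. A site covered the start itself for 29 of 44 replication-dependent genes in the dieldrin list and 25 in the DMSO list, against 29.7% and 29.9% of all genes. Overlapping sites stood in both lists for 56 members. Between the starts of the head-to-head pairs a site was listed for 10 of 10 histone pairs with dieldrin and 9 of 10 with DMSO, where all 1253 such pairs of genes reached 77.6% and 78.6%. The pair without a DMSO site was HIST2H2AA3 and HIST2H2BD.

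At the called genes the lists differed in extent, in both directions: within 1 kb of the start, dieldrin sites covered more bases than DMSO sites at 5 of the 8 and fewer at 3. The same count over the other members and over all genes was not worked out, so this split is not shown to be particular to the called genes. The 3 with fewer were HIST1H2AC and the head-to-head partners HIST3H2A and HIST3H2BB, whose windows overlap. At H3F3B, the dieldrin list has a site from -294 to 1141 bp of the start, whereas the DMSO site runs from 836 to 1184 bp. At H1F0, the dieldrin sites run from -727 to -53 bp and from 35 to 128 bp of the start, and the DMSO site from -171 to 31 bp. At HIST3H2A, the start is covered in both lists, by a dieldrin site that reaches 834 bp into and past the gene and a DMSO site that reaches 483 bp; on the upstream side the dieldrin list has a site of 31 bp and the DMSO list sites of 624 and 1810 bp. Around the HIST1H2AC start, dieldrin sites covered 796 bp and DMSO sites 887 bp. At HIST2H2BC, a DMSO site of 348 bp covers the start, and the nearest dieldrin site upstream has 809 bp. Further into HIST2H2BC, a dieldrin site of 7564 bp (chromosome 1, 149814485 to 149822048) runs from inside the pseudogene across RP11-196G18.22 and RP11-196G18.24 to HIST2H2BD, and the DMSO list has 0 sites in that stretch. Depth of the lists' libraries is unknown, and its part in site length was not tested.

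**Figure D4:**
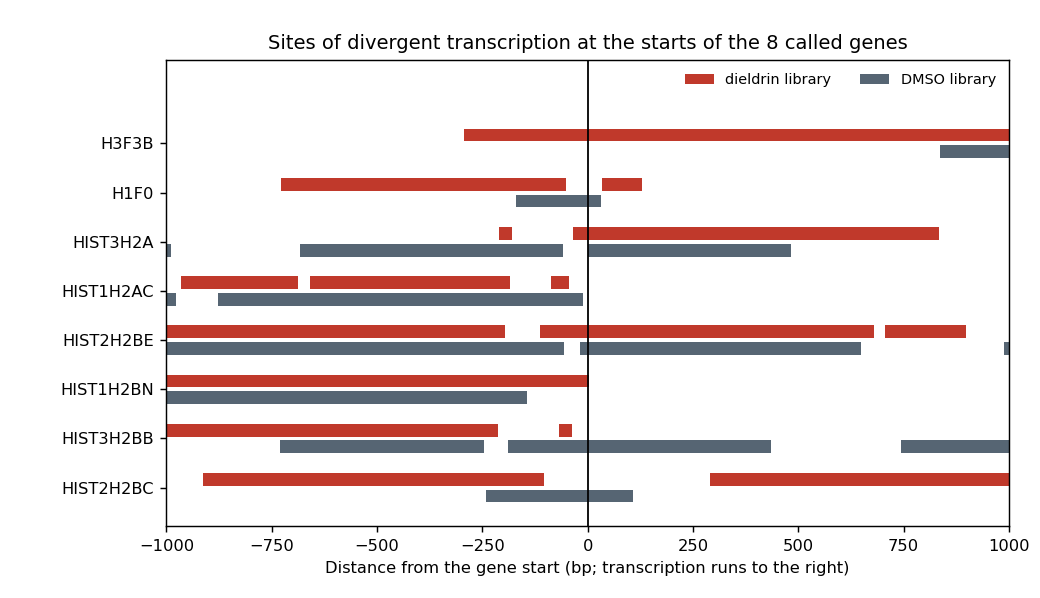
Sites of divergent transcription within 1 kb of the start of the 8 histone genes called with dieldrin, from the dieldrin library (upper bars) and the DMSO library (lower bars), by distance in bp along the direction of transcription. Every gene has a site in both lists inside this window, and extents differ, as at H3F3B, where the dieldrin site alone covers the start.

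The motifs set in capitals were counted over all 35116 RefSeq windows of 250 bases. TATAAA occurred in 10.7% of all windows, in 24 of 37 replication-dependent genes and in 4 of 6 replacement variants. CCAAT occurred in 32.0% of all windows, in 30 of 37 and in 4 of 6. The octamer ATTTGCAT occurred in 1.63% of all windows, in 12 of 37 and in 1 of 6, which is H3F3B. Of the 12, 7 were H2B genes (of 10) and 5 H2A genes (of 9), with 0 among replication-dependent H1, H3 and H4 genes. TGACGT occurred in 7.10% of all windows, in 11 of 37 and in 0 of 6. Of the genes called with dieldrin 6 have a window: TATAAA occurred in 3, CCAAT in 6, the octamer in 3 and TGACGT in 3, against 25, 28, 10 and 8 of the 37 other members. HIST3H2A and HIST3H2BB, both called, share 229 bases of their windows, so the same letters can count for both. HIST2H2AC and HIST1H2BC, among the others, share 235 and 245 bases with the windows of called genes. HIST1H2AK, also among the others, has its hg19 start 206 bp from that of the called HIST1H2BN, and any overlap of their windows is not given here. A difference between called and other genes was not tested. The CArG box occurred in 1.16% of all windows, and among the histone genes in 2 of 37 and 0 of 6, which are HIST2H2BE and HIST2H2AC with their shared promoter. No match says only that these letters are not in the window.

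Lists of genes that make, process and place histone mRNA and protein were read from the same tables, in which 2.3% of all genes were called with dieldrin and 0.619% with PMA; the counts lie near these shares. Of 35 genes of S phase and DNA replication, 0 were called with dieldrin and 0 with PMA. The smallest p-values there belonged with dieldrin to POLD1, a subunit of the replicative polymerase delta, with 7321 counts with dieldrin, 9102 with PMA and 9514 with DMSO (adjusted p = 0.211 in the authors' deposited table), and to the helicase gene MCM3. Of 21 genes that control histone gene transcription, 0 were called with either treatment: NPAT, the coactivator of histone genes at the histone locus body, had 2489 counts with dieldrin, 2259 with PMA and 2088 with DMSO (adjusted p = 0.311 in the authors' deposited table), CRAMP1L (log2 change 0.21, adjusted p = 0.165 in the authors' deposited table) had 1504 with dieldrin, 1414 with PMA and 1304 with DMSO, and CDKN1B, a CDK inhibitor, had 3568 with dieldrin, 3389 with PMA and 2814 with DMSO (adjusted p = 0.0809 in the authors' deposited table).

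Of 26 genes of histone mRNA processing and decay, 0 were called with either treatment. SLBP, which binds the stem-loop, had 15648 counts with dieldrin, 17035 with PMA and 16672 with DMSO, and its dieldrin log2 change in the authors' deposited table was -0.09. SYMPK, a scaffold of the cleavage complex, had a log2 change of -0.26 (adjusted p = 0.25 in the authors' deposited table), and ZNF473, a processing factor that binds the U7 particle, one of 0.20 (adjusted p = 0.371 in the authors' deposited table). Of 29 histone chaperone and deposition genes, 1 was lower with dieldrin and 0 higher, and 1 was higher with PMA and 0 lower. HIRA, the chaperone that deposits the protein of H3F3A and H3F3B in transcribed chromatin, had 3724 counts with dieldrin, 4400 with PMA and 4428 with DMSO (0.841-fold, adjusted p = 0.0212 in the authors' deposited table). HJURP, the chaperone of the centromeric H3 variant, was the gene higher with PMA, with 6264 counts with dieldrin, 6857 with PMA and 5774 with DMSO (PMA adjusted p = 0.00268 in the authors' deposited table).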

How the data were processed

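RNA sequencing of Jurkat cells gave 9 poly(A) libraries in 3 groups and 2 libraries depleted of ribosomal RNA. STAR, edgeR and hg19 appear in the submitters' processing notes; how reads were counted, with or without strand, and which caller made the sites is not given in the sources used here. Per the file headers, the authors' tables hold for 44416 genes a mean normalised count (signal), log2 changes with and without shrinkage, a standard error and a Wald score, and p-values with adjusted p-values; these column names are those of DESeq2, not edgeR. Calls use the authors' adjusted p under 0.05. Low means carry no adjusted p: the lowest adjusted mean was 5.13 with dieldrin and 9.44 with PMA.

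Group levels were computed from the mean, taken as that over 9 libraries, and the 2 unshrunken changes. Dieldrin against PMA used the difference of shrunken changes over its standard error (squares summed, then the root), as a two-sided normal test, adjusted by Benjamini-Hochberg over 17612 genes; the covariance of the shared DMSO libraries was left out. The steps were tested on simulated data. Gene types came from GENCODE 29 and RefSeq, by identifier or name. Gene and site positions are hg19, counted from 1; promoter windows are GRCh38.p14. The work used scipy 1.17.1, pandas 2.3.3, numpy 2.4.6 and matplotlib 3.10.9 in Python 3.11.15.

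Members and lists were chosen with earlier results of these data known. Named genes were all called members, all replacement variants, the 2 of most counts per type, those nearest to the limits, the 3 of largest shrunken change per comparison, and per pathway list those called and up to 2 of smallest p with dieldrin; pair partners, HIST2H2BD, HIST1H3I, the pseudogenes of H3F3A, SLBP, NPAT and the named neighbours were chosen after their values were seen.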

Additional observations from a re-analysis of the deposited data

How the results depend on the processing

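With dieldrin, 6 to 9 histone genes were higher under the settings tried and 0 lower; HIST1H2BN was lost at an adjusted p under 0.01 (0.0143), where calls over all genes were 286 against 443. With the Wald statistic rescaled to its spread, chosen after seeing the data, H1FX was added with dieldrin (9 called), and PMA calls went to 2, with 1 replication-dependent gene (HIST3H2A, 0.0196) and 1 replacement variant (H1F0, 0.00483); over all genes PMA calls were then 501 against 109, with 322 higher and 179 lower against 93 and 16. Dieldrin against PMA gave 1 histone gene higher in place of 2 at an adjusted p under 0.01, at 1 CPM or more, with adjustment over all genes with a mean of at least 5 (HIST2H2BC at 0.0511), without pseudogenes and the antisense RNA, and with unshrunken changes (HIST2H2BC at 0.407). With the covariance of the shared DMSO libraries taken out it gave 4, of which 3 were replication-dependent (HIST1H2AC at 0.00111 and HIST3H2BB at 0.0182 were added), and 269 of all genes against 87. The cause of these shifts was not tested, except that the last setting makes the error smaller by construction. Class medians kept their sign and levels their order. Site counts fell with narrower windows, and the order of the lists turned. A site lay within 1 kb of the start for 57 members with dieldrin and 58 with DMSO. Within 250 bp these were 54 with dieldrin and 51 with DMSO, and on the start 36 with dieldrin and 34 with DMSO. No paired analysis was possible because no values per library were used, and leaving out single libraries was not run for the same reason. Depth is unknown, and 11 of 44 replication-dependent genes had a mean under 20, where a change is hard to detect.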
